A study of Mus musculus with 30 samples.

Results

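The common effect of the antibody C269 on tumour T cells was measured in 20 of the 30 libraries of a mouse RNA-seq study of 4T1 tumours. The 4T1 line is a mouse mammary carcinoma, and the cells carried green fluorescent protein. The libraries were chosen by their labels: 5 of CD4+ T cells and 5 of CD8+ T cells from wild-type mice given C269, and 5 of each lineage from mice given a control IgG1 (CTRL). C269 binds the extracellular form of nicotinamide phosphoribosyltransferase (eNAMPT) and was given at a dose of 2.5 mg/kg, 2 times per week over 1 month. T cells were taken out of the tumours with magnetic beads, a step that enriches cells and does not make them pure. The remaining 10 libraries, of sorted 4T1 cells, stayed outside the fit. The labels do not give the strain, age and sex of the mice, nor whether each library is 1 animal or whether CD4+ and CD8+ libraries of a treatment share tumours. The p-values therefore measure the spread between libraries, and they may be too small if both lineages came from the same tumours.

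Inside cells, NAMPT turns nicotinamide into nicotinamide mononucleotide, the step that limits the recycling of NAD. Outside cells the protein acts as a cytokine. PD-1 is an inhibitory receptor of T cells, and PD-L1 is its ligand on tumour and myeloid cells. CD4+ helper and CD8+ cytotoxic T cells differ in their co-receptors and effector genes but share the T cell receptor complex, the activation genes such as Il2ra and Cd44, and the checkpoint receptors. A single model with lineage as a block and treatment as the tested term asked which genes C269 moved in both lineages together.

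Each library held between 2005579 and 4495219 counts assigned to genes, with 12208 to 18348 genes detected by 1 count or more. The number of genes detected fell by 1243 under C269, averaged over the lineages (14450 ± 1577 in CD8 C269 against 16550 ± 500.0 in CD8 CTRL, and 17510 ± 640 in CD4 C269 against 17900 ± 416 in CD4 CTRL, SD, n = 5 each). The difference passed a two-sided exact permutation test within lineages (adjusted p = 0.0179 over 4 library measures). Mean totals were 2523000 in CD8 C269 against 3236000 in CD8 CTRL, and 4012000 in CD4 C269 against 4118000 in CD4 CTRL. The difference in totals did not pass the same permutation test (adjusted p = 0.113). The numbers of genes detected were not adjusted for the totals. The 2 CD8 C269 libraries numbered 27 and 29 stood apart, with the fewest genes (12208 and 13400) and the lowest totals (2005579 and 2024270), so that results resting most on them are also given without them, an alternative chosen after seeing the data. The CD4 CTRL library 14 stood apart by a low summed level of 8 T cell markers, 1328 CPM where the other CD4 CTRL libraries held at least 3079 CPM. CPM scale each count to the total that its library assigned to genes. The lineage labels held in both treatments: Cd4 averaged 163 ± 27.4 CPM in CD4 C269 and 160.4 ± 50.3 CPM in CD4 CTRL, against 10.2 ± 9.91 CPM in CD8 C269 and 6.495 ± 4.36 CPM in CD8 CTRL. Cd8a averaged 459.6 ± 138 CPM in CD8 C269 and 462 ± 102 CPM in CD8 CTRL, while CD4 C269 held 25.6 ± 14.3 CPM and CD4 CTRL 14.97 ± 5.08 CPM (SD, n = 5 each).

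Of 13264 genes tested, 5 passed for the common effect, 0.0377% of the genes tested, and all 5 rose with C269; the 4 described here are Fam25c, Prlr, Ptn and Cd24a (edgeR quasi-likelihood test, Benjamini-Hochberg adjusted p = 0.0251 for each). No gene passed in the other direction by edgeR, while DESeq2 called 60 genes (0.453%), 53 higher (0.4%) and 7 lower (0.0528%), among them the same 5. None of the 5 passed with limma-voom or with robust dispersion in edgeR. At an unadjusted p under 0.05 there were 1167 genes (8.8%), 732 higher (5.52%) and 435 lower (3.28%). None of these 4 is a gene of the T cell receptor, of a helper or cytotoxic programme, or of a checkpoint. Prlr encodes the prolactin receptor of the mammary gland, and Ptn the secreted growth factor pleiotrophin. Cd24a encodes a small glycoprotein anchored on epithelial cells, B cells and immature T cells.

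Prlr, on chromosome 15 at 10177238 (GRCm38 start in the deposited tables), had 37.8, 97.9, 33.4, 287 and 212 CPM in the CD4 C269 libraries 16 to 20, against 15.02, 8.799, 4.92, 12.003 and 63.6 CPM in the CD4 CTRL libraries 11 to 15. In CD8+ cells it had 5.699, 143, 18.97, 75.6 and 29.5 CPM in the C269 libraries 26 to 30, against 3.07, 4.53, 4.19, 9.62 and 9.66 CPM in the CTRL libraries 21 to 25. The 2 treatments overlapped in CD4+ cells only through library 15, the highest control, and in CD8+ cells only through library 26, the lowest C269 library. The common log2 fold change of Prlr was 2.85 (SE 0.51).

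Ptn, on chromosome 6 at 36714929, had 41.2, 78.4, 50.5, 293 and 93.3 CPM in CD4 C269, against 6.62, 3.61, 4.92, 5.75 and 44.7 CPM in CD4 CTRL. It had 10.6, 315, 3.98, 41.5 and 17.2 CPM in CD8 C269, against 1.02, 0, 3.29, 1.15 and 3.93 CPM in CD8 CTRL. Every CD8 C269 library lay above every CD8 CTRL library, the closest pair being libraries 28 and 25. In CD4+ cells library 15 lay above the C269 library 16, and the common log2 fold change was 3.91 (SE 0.71).

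Cd24a, on chromosome 10 at 43578284, had the smallest fold change of the 5. It had 55.6, 57.1, 74.5, 55.1 and 107 CPM in CD4 C269, against 48.4, 29.8, 29.5, 48.8 and 63.1 CPM in CD4 CTRL. It had 53.9, 149, 84.4, 109.7 and 79.4 CPM in CD8 C269, against 16.1, 18.4, 24.9, 16.5 and 32.9 CPM in CD8 CTRL. The CD8 groups did not overlap, whereas 3 of the 5 CD4 C269 libraries lay below library 15, and the common log2 fold change was 1.37 (SE 0.25).

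Fam25c, on chromosome 14 at 34351881, had 12.8, 19.9, 12.01, 82.5 and 19.5 CPM in CD4 C269, against 0, 0, 0, 0 and 5.05 CPM in CD4 CTRL. It had 0, 33.9, 3.36, 1.98 and 4.47 CPM in CD8 C269 and no count in any CD8 CTRL library. With 95 counts over the 5 CD8 C269 libraries, and 3 counts as the most that a count of 0 over the CD8 CTRL group allows, its level was at least 40.6-fold higher in CD8 C269. Library 27 held 68 of these counts, and without it the bound was 13.7-fold. Such bounds cover counting error only. With counts in library 15 alone among CTRL libraries, Fam25c passed the filter on low counts through its C269 libraries. It was also picked by p from these same values, so the bound describes them and tests nothing. The fitted common log2 fold change of 5.30 (SE 0.90) is no bound, because it depends on how the model treats the zeros.

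**Figure D1:**
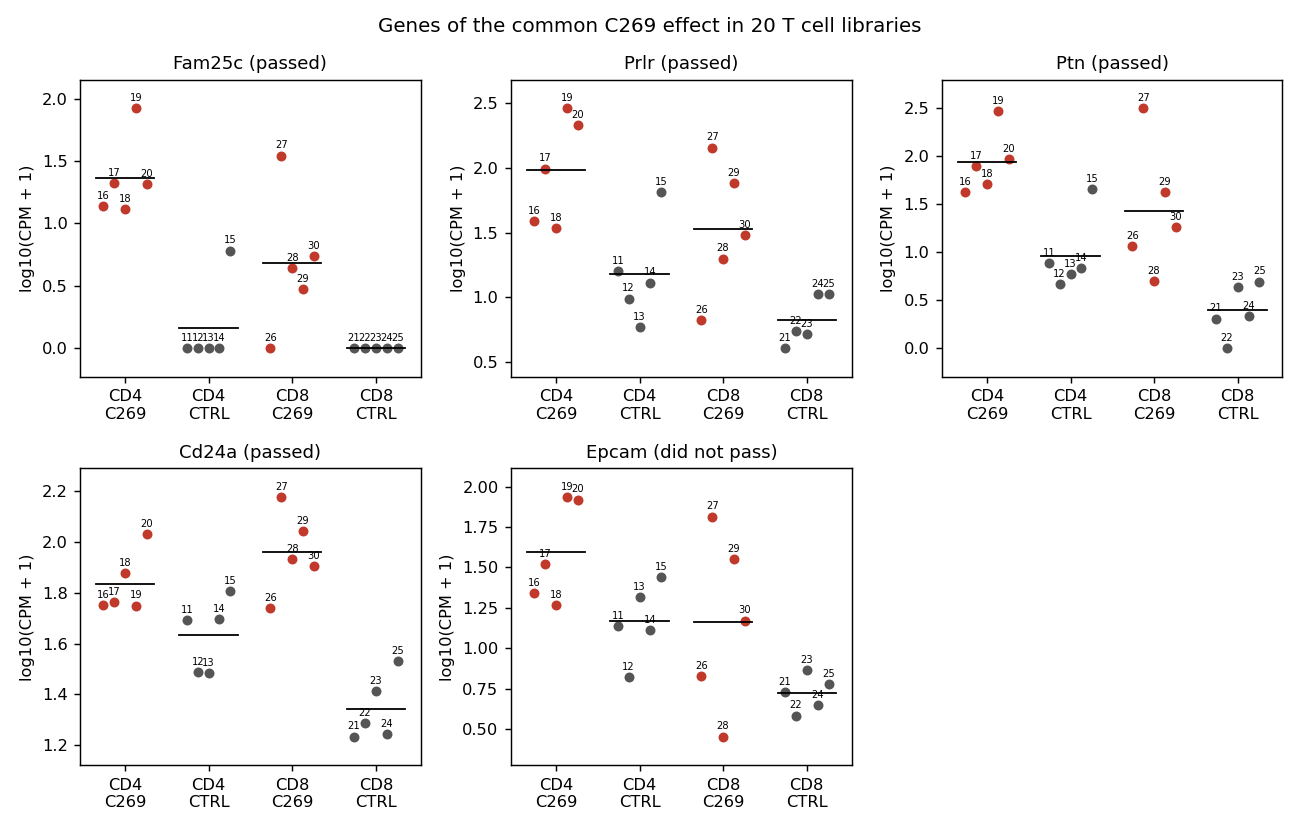
Levels of 4 genes that passed and of Epcam, which did not, as log10(CPM + 1) in each of 20 libraries (numbers beside the points), with C269 libraries in red, CTRL libraries in grey and the group mean of the plotted values as a line. Libraries 19 and 27 were the highest of their groups for Fam25c, Prlr, Ptn and Epcam, and library 15 was the highest CD4 CTRL library for Fam25c, Prlr, Ptn, Cd24a and Epcam.

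The libraries that carried these genes were often the same. Among the 20 genes with higher C269 levels that are the 5 called and the next 15 by p, the CD4 C269 libraries 19 and 20 were the top pair of their group for 14, and the CD8 C269 libraries 27 and 29 for 12. Library 15 was the highest CD4 CTRL library for 16 of the 20. Libraries 19 and 20 also had the fewest genes detected of CD4 C269 (16676 and 17113) and the highest ribosomal RNA shares (4.39% and 3.52%). Libraries 27 and 29 did so in CD8 C269, with 12208 and 13400 genes and shares of 7.95% and 7.24%. The part of these measures in the gene levels was not tested. Libraries 27 and 29 together held 91.8% of the summed CD8 C269 level of Ptn, 82.1% of that of Fam25c, 80.1% of that of Prlr and 54.3% of that of Cd24a. Without libraries 27 and 29, 3 genes passed, all among the 5, with Fam25c and Ptn among them. Prlr then had a common log2 fold change of 2.27 (edgeR adjusted p = 0.147) and Cd24a one of 1.12 (edgeR adjusted p = 0.0708).

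The calls also depended on single libraries. No gene passed when any 1 of the libraries 12, 13, 19, 20, 21, 22, 23, 24 or 25 was left out, and 11 passed without library 14. Over the 20 such fits the common log2 fold change lay between 4.90 and 8.96 for Fam25c, with the highest value in the fit without library 15, the only CTRL library with a count of it. It lay between 2.54 and 3.39 for Prlr, between 3.11 and 4.76 for Ptn and between 1.24 and 1.49 for Cd24a. Their edgeR adjusted p reached at most 0.116 for Fam25c and Prlr, 0.149 for Ptn and 0.101 for Cd24a.

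**Figure D2:**
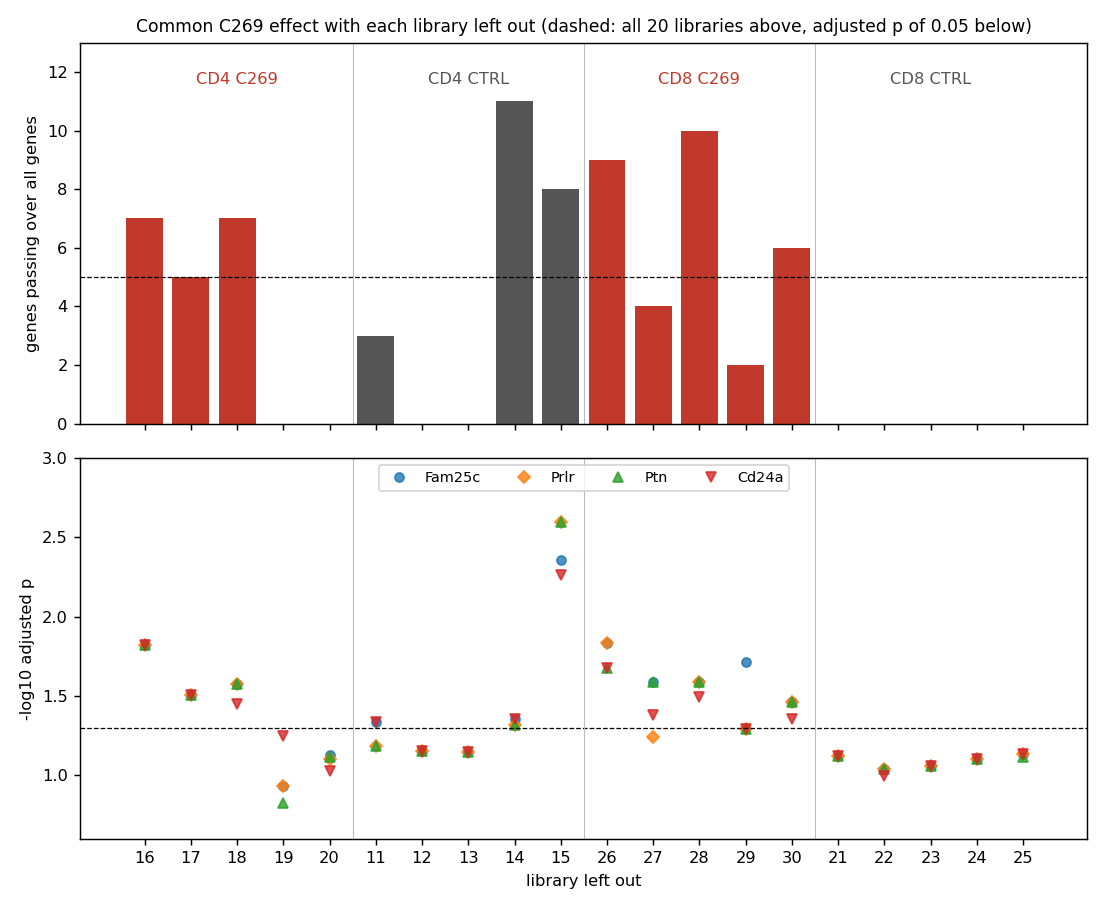
Top, number of genes passing for the common effect when each library is left out, in the order CD4 C269, CD4 CTRL, CD8 C269, CD8 CTRL, with the 5 of all 20 libraries as a dashed line. Bottom, −log10 of the edgeR adjusted p of the 4 genes described in the same fits, with the threshold of 0.05 dashed: all 4 lie under it when any of the libraries 12, 13, 19 to 25 is left out.

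Promoters of called genes are shown because these genes were higher in the same libraries; RefSeq (GRCm38.p6) gave a promoter for 3 of the 4 described. Each line covers 250 bases before and 50 bases after a start, 5′ to 3′ on the strand of the gene. Capitals mark matches to AGAACA or its reverse complement TGTTCT, the half-site of steroid hormone receptors, or to TTCNNNGAA, the core that STAT proteins bind and that reads the same on both strands. The Ptn promoter (chr6:36810130-36810429, minus strand) held 1 match to AGAACA, and the Prlr promoter at the deposited start (chr15:10176988-10177287, plus strand) and the Fam25c promoter (chr14:34355344-34355643, minus strand) held no match.
Ptn: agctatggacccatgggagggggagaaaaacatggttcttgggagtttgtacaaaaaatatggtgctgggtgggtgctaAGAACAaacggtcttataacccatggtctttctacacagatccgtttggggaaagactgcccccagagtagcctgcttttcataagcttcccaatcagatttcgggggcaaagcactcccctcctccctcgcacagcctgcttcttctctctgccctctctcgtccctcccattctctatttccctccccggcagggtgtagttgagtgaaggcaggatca
Prlr: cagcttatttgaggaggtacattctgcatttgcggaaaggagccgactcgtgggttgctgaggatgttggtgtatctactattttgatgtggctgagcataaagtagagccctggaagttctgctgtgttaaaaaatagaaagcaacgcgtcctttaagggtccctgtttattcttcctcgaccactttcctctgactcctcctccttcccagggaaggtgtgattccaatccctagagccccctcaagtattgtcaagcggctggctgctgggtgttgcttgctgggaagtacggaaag
Fam25c: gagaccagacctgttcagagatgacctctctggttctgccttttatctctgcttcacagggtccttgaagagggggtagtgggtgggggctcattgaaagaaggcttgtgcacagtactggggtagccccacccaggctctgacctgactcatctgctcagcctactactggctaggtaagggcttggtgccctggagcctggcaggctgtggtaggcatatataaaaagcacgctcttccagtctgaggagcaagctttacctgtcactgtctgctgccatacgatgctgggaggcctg
Prlr has 2 further starts in the table. The promoter at chr15:10223656-10223955 held both motifs, 1 match each, and is given for comparison, while the one at chr15:10293401-10293700 held neither.
Prlr, downstream start: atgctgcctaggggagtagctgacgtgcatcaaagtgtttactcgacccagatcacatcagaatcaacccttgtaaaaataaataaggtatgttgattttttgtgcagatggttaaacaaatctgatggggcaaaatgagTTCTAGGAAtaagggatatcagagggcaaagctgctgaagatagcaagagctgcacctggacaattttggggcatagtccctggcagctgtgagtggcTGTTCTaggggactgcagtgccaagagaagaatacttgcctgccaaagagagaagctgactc
Of 32851 promoters of the same length, 18.97% held AGAACA or TGTTCT and 8.298% held TTCNNNGAA. A match describes letters in this window and not a bound site.

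The next genes by p were chosen after their values were seen, and none of them passed by edgeR. Of these 15 genes, 4 are on the list of epithelial markers: Cldn4, Epcam, Krt19 and Cdh1. Cited1, a transcriptional co-regulator of the mammary gland, had 14.9, 18.1, 14.01, 58.1 and 41.7 CPM in CD4 C269 and 7.13, 2.26, 0.468, 3.501 and 6.31 CPM in CD4 CTRL. It had 3.799, 92.2, 1.84, 29.1 and 4.47 CPM in CD8 C269 and 0, 0, 5.99, 1.15 and 2.15 CPM in CD8 CTRL. All 5 CD4 C269 libraries lay above all CD4 CTRL libraries, while in CD8+ cells only libraries 27 and 29 lay above all controls (log2 fold change 3.26, SE 0.66, edgeR adjusted p = 0.0707).

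Epcam, the epithelial adhesion molecule, had 21.002, 32.1, 17.6, 85.03 and 82.2 CPM in CD4 C269 and 12.7, 5.64, 19.7, 12.003 and 26.5 CPM in CD4 CTRL. It had 5.699, 64.3, 1.84, 34.6 and 13.8 CPM in CD8 C269 and 4.35, 2.83, 6.29, 3.46 and 5.01 CPM in CD8 CTRL. Again libraries 19, 20, 27 and 29 were the highest of their groups, and library 28 lay below every CD8 CTRL library (log2 fold change 1.96, SE 0.45, edgeR adjusted p = 0.145). The tight junction gene Cldn4 had a log2 fold change of 2.34 (SE 0.50, edgeR adjusted p = 0.106). Krt19, a keratin of simple epithelia, had 2.85 (SE 0.66, edgeR adjusted p = 0.152), and Cdh1, which encodes E-cadherin, had 1.00 (SE 0.24, edgeR adjusted p = 0.162). The keratin genes Krt7, Krt8, Krt18 and Krt14 had 1.25, 0.82, 0.96 and 0.56, with edgeR adjusted p between 0.351 and 0.865. Libraries 27 and 29 held 92.3% of the summed CD8 C269 level of both Cited1 and Krt19 and 82.3% of that of Epcam. Without them the common log2 fold change was 2.19 for Cited1, 1.81 for Krt19, 1.27 for Epcam and 1.73 for Cldn4 (edgeR adjusted p between 0.245 and 0.424).

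Tlcd4 and Pwwp3b had no count in any CD8 CTRL library, against 154 and 69 counts over the CD8 C269 libraries, which puts them at least 65.8-fold and 29.5-fold higher there. Library 27 held 89 and 51 of these counts, and without it the bounds were 33.0-fold for Tlcd4 and 9.15-fold for Pwwp3b. The counts were uneven: library 26 had none of either gene, and libraries 28 and 29 had none of Pwwp3b. These bounds pool the libraries of a group, and both genes passed the filter on low counts only with their C269 libraries. In CD4+ cells Tlcd4 had 9.84, 16.5, 6.01, 74.3 and 32.3 CPM in C269 and 0.509, 0, 0, 3.25 and 8.83 CPM in CTRL. Neither passed for the common effect (edgeR adjusted p = 0.0585 for Tlcd4 and 0.141 for Pwwp3b).

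Cdo1, which encodes cysteine dioxygenase, had a log2 fold change of 2.31 (SE 0.54, edgeR adjusted p = 0.152), and Slc12a2, which encodes a cotransporter of sodium, potassium and chloride, had 1.09 (SE 0.26, edgeR adjusted p = 0.162).

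Other genes of this group are known from leukocytes. Xbp1, a transcription factor of the unfolded protein response and of plasma cells, had 101, 99.7, 119, 152 and 143 CPM in CD4 C269 and 81.7, 93.9, 83.8, 109.5 and 86.05 CPM in CD4 CTRL. It had 107, 149.6, 101, 123 and 125 CPM in CD8 C269 and 62.4, 82.6, 94.02, 69.6 and 65.8 CPM in CD8 CTRL. The CD8 groups did not overlap, and the log2 fold change was small, 0.54 (SE 0.11, edgeR adjusted p = 0.0759). How many of all genes tested lacked overlap in 1 lineage was not counted. A lack of overlap in 1 lineage, for Xbp1 or any other gene named, therefore cannot be set against that share. The genes named here were also picked by p from the same values. Ighm, the constant region of IgM, had a log2 fold change of 1.26 (SE 0.25, edgeR adjusted p = 0.0585).

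Ccr3, the eotaxin receptor, had a log2 fold change of 2.02 (SE 0.47, edgeR adjusted p = 0.152), and all 5 CD8 C269 libraries exceeded all CD8 CTRL libraries. Cyp4f18, a cytochrome that inactivates leukotriene B4 in mouse neutrophils, had 1.59 (SE 0.34, edgeR adjusted p = 0.106), also without overlap in CD8+ cells. Ctla2a, a cysteine protease inhibitor of activated T cells, had 203, 151, 340.1, 242 and 278 CPM in CD4 C269 and 128, 105, 114, 109 and 174 CPM in CD4 CTRL. It had 485, 371, 368, 412 and 318 CPM in CD8 C269 and 230.3, 236, 334, 385 and 258 CPM in CD8 CTRL, and the log2 fold change was 0.68 (SE 0.15, edgeR adjusted p = 0.106).

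Markers of epithelial cells and of several other cell types had mostly positive fold changes, although no member of any marker list passed by edgeR. DESeq2 called 4 epithelial markers (Cldn4, Epcam, Cdh1 and Krt19) and the plasma cell markers Sdc1 and Ighm, all higher. In bulk libraries, fewer cells of a type and less RNA per cell cannot be told apart. All 8 tested of 10 epithelial markers had positive common fold changes, 7 of them at an unadjusted p under 0.05, with a median log2 fold change of 1.13 against a median of -0.0027 over all genes tested. Without libraries 27 and 29, 7 of the 8 were positive, 4 at an unadjusted p under 0.05, with a median of 0.65, and Krt14 was at -0.21. Their summed level was 325, 459, 468, 730.4 and 898 CPM in CD4 C269, against 334, 222, 328, 347 and 319 CPM in CD4 CTRL. It was 100.3, 579.9, 48.95, 312 and 119 CPM in CD8 C269, against 74.5, 37.1, 75.8, 74.6 and 114 CPM in CD8 CTRL. Library 20 held the most in CD4+ cells and library 27 in CD8+ cells. Every CD4 CTRL library held more than every CD8 CTRL library, whereas library 27 exceeded 3 of the 5 CD4 C269 libraries, and no defining epithelial marker was at 0 in all libraries.

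Other marker lists gave less even pictures. Of 9 fibroblast markers 8 had positive fold changes (median 1.14, 3 at an unadjusted p under 0.05), and their summed levels were 10070 CPM in library 20 and 8043 CPM in library 29 against 605.7 to 2915 CPM elsewhere in C269 libraries and 720.3 to 6395 CPM in CTRL libraries. All 6 tested plasma cell markers (median 0.84) and all 7 tested B cell markers (median 0.66) were positive, with Mzb1 at 0 in all 20 libraries. Neutrophil markers were positive in 7 of 9 (median 0.59) and erythroid markers in 5 of 5 (median 0.77). Macrophage and monocyte markers were negative in 8 of 12 (median -0.20). Their summed level was 5667 CPM in library 14, against 1441 to 3246 CPM in the other CD4 CTRL libraries and 1526 to 3407 CPM in CD4 C269. It was 988.1 to 2964 CPM in CD8 C269 and 1159 to 2760 CPM in CD8 CTRL. Endothelial markers were positive in 4 of 6 (median 0.25), dendritic cell markers in 5 of 9 (median 0.31) and class II presentation genes in 4 of 7 (median 0.02). Mast cell and basophil markers were positive in 3 of 4 (median 0.07) and NK cell markers in 2 of 2 (median 0.64). The 8 T cell markers were split evenly, with 4 higher and 4 lower (median 0.01), the 3 CD8 lineage markers were all positive (median 0.15) and the CD4 lineage markers positive in 2 of 3 (median 0.05). The summed level of the T cell markers was 2072 to 3230 CPM in CD4 C269, 1328 to 3331 CPM in CD4 CTRL, 4050 to 5127 CPM in CD8 C269 and 4083 to 5191 CPM in CD8 CTRL. Without libraries 27 and 29 the median was 0.46 for fibroblast, 0.51 for plasma cell, 0.65 for B cell, 0.17 for neutrophil and 0.24 for erythroid markers, -0.38 for macrophage and monocyte markers and -0.08 for endothelial markers. The part of other cell types in the 5 called genes was not tested.

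**Figure D3:**
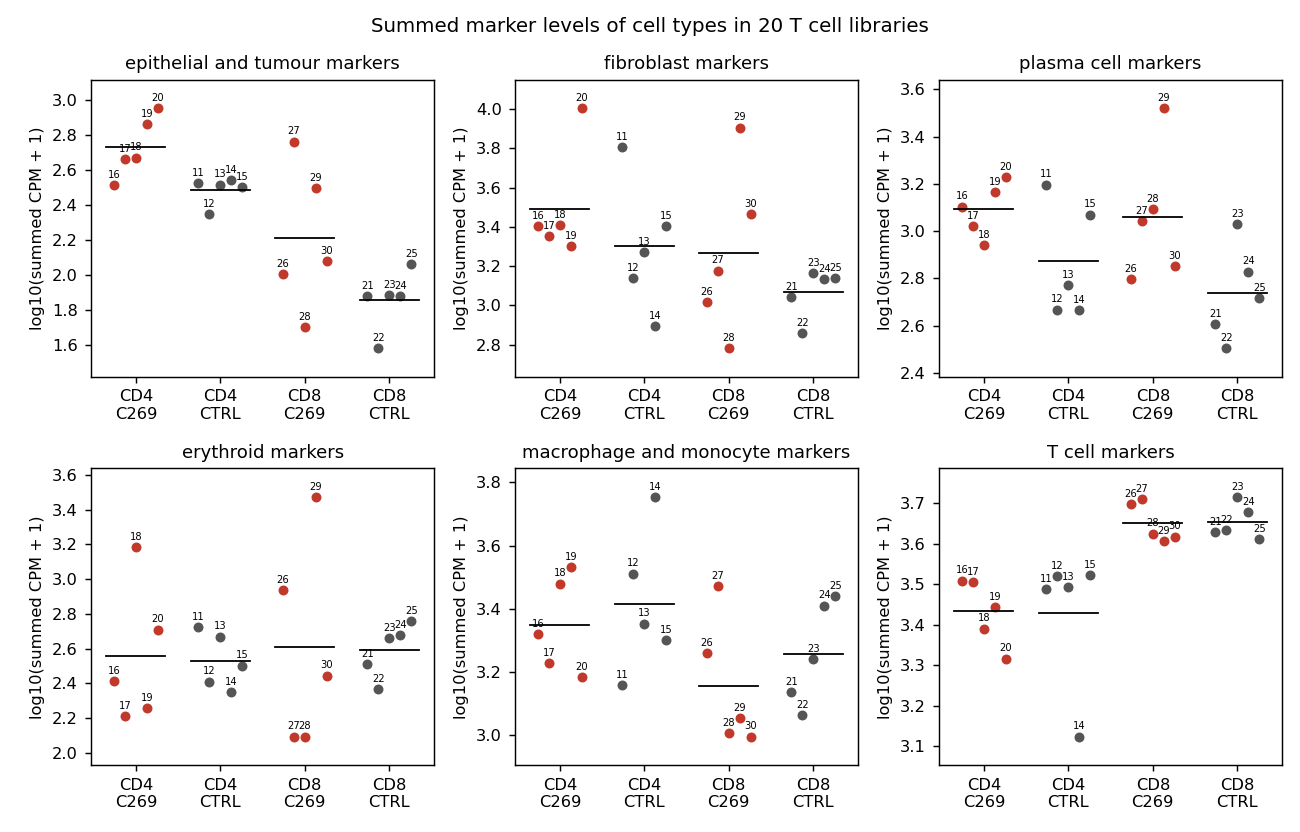
Summed levels of marker lists as log10(summed CPM + 1) in each of 20 libraries, C269 in red and CTRL in grey, with the group mean of the plotted values as a line. Epithelial markers reach 898 CPM in library 20 and 580 CPM in library 27, fibroblast markers are highest in libraries 20 and 29, and T cell markers overlap between treatments in each lineage.

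The genes with the smallest p in the lower direction did not pass by edgeR, and DESeq2 called the 5 described here among its 7. Gadd45gip1, whose protein helps insert respiratory chain subunits made on mitochondrial ribosomes, was the single gene of 13264 (0.00754%) with all 5 C269 libraries below all 5 CTRL libraries in both lineages. It had 15.95, 19.9, 19.8, 12.7 and 13.4 CPM in CD4 C269, against 24.7, 23.9, 27.6, 20.3 and 37.6 CPM in CD4 CTRL. It had 12.9, 12.96, 18.7, 11.4 and 16.03 CPM in CD8 C269, against 28.9, 27.7, 27.5, 19.6 and 27.9 CPM in CD8 CTRL. Its common log2 fold change was -0.80 (SE 0.18, edgeR adjusted p = 0.141), and no gene had all C269 libraries above all CTRL libraries in both lineages.

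Ighg2b, an immunoglobulin heavy chain constant region, had 27.1, 24.5, 10.5, 11.7 and 16.03 CPM in CD4 C269 and 230.2, 30.2, 41.5, 10.8 and 35.3 CPM in CD4 CTRL. It had 1.14, 0, 13.2, 4.45 and 4.102 CPM in CD8 C269 and 8.699, 8.49, 106, 50.4 and 37.6 CPM in CD8 CTRL. Library 11 was far above the other CD4+ libraries, and the log2 fold change was -2.48 (SE 0.55, edgeR adjusted p = 0.139). Its near copy Ighg2c had -2.93 (SE 0.69, edgeR adjusted p = 0.152), and the split of reads between these paralogs is uncertain. Ighm, from the same locus, had the opposite sign.

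Tagap, a GTPase-activating protein of activated T cells, had 125, 102, 62.5, 68.3 and 77.8 CPM in CD4 C269 and 289, 195, 222, 53.5 and 142 CPM in CD4 CTRL. It had 88.9, 106, 95.4, 117 and 149 CPM in CD8 C269 and 166, 207, 157, 139 and 256 CPM in CD8 CTRL. In CD4+ cells the groups overlapped only through library 14, the lowest of all 10, and the log2 fold change was -0.91 (SE 0.21, edgeR adjusted p = 0.152). Amigo2, a cell adhesion molecule, had -0.88 (SE 0.23, edgeR adjusted p = 0.189).

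**Figure D4:**
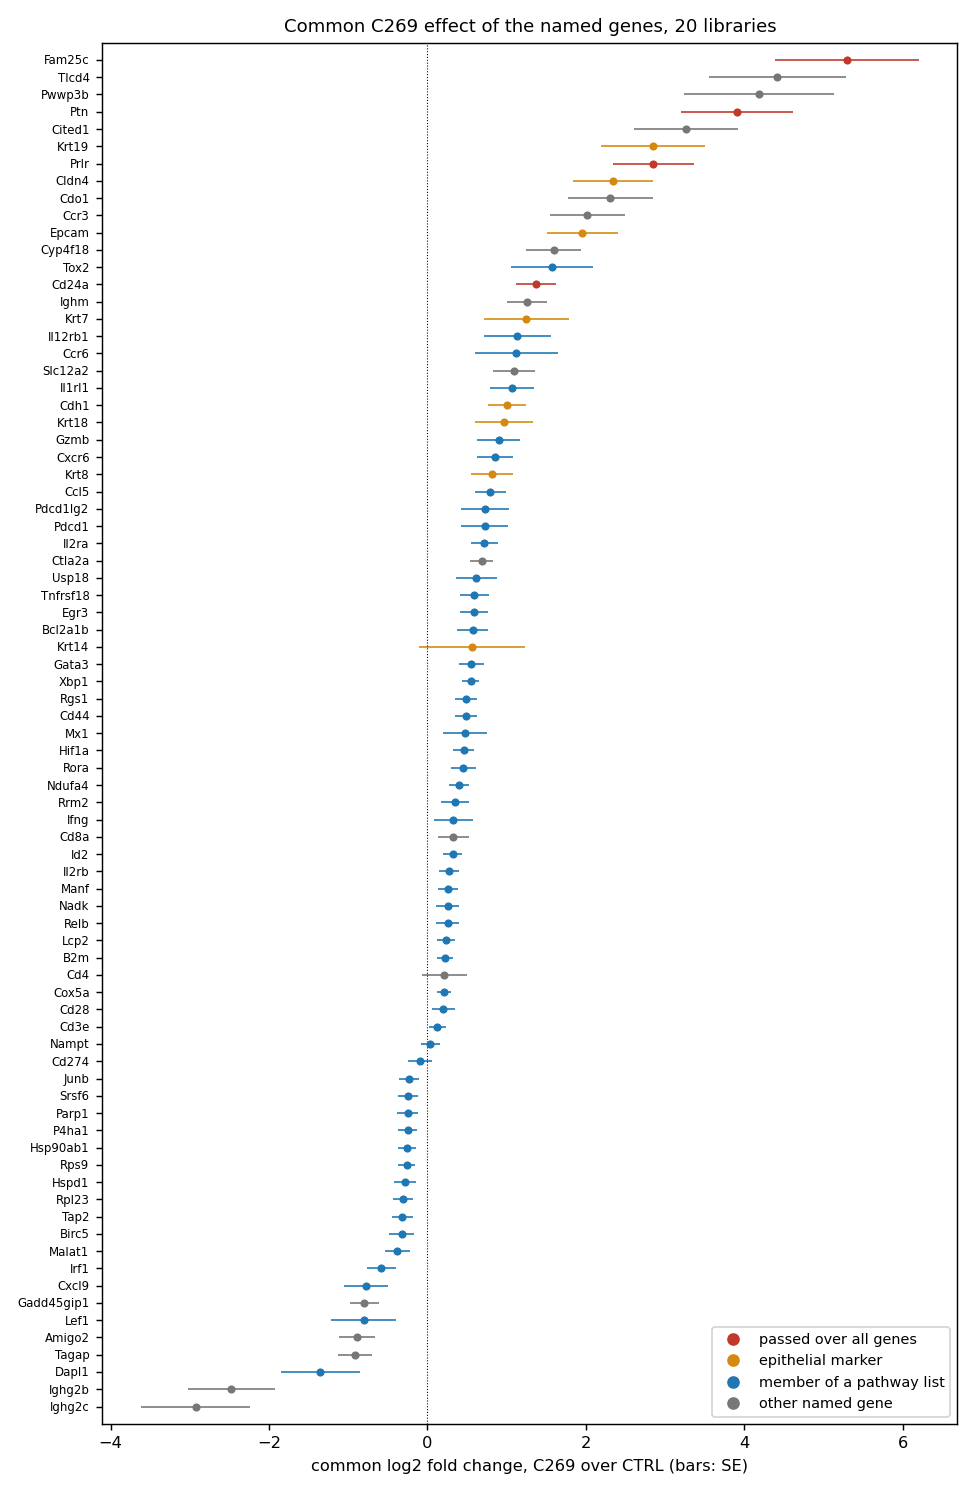
Common log2 fold change of C269 over CTRL with its standard error (bars) for each named gene, fitted over 20 libraries. The 4 genes that passed (red) lie between 1.37 and 5.30, the epithelial markers (orange) between 0.56 and 2.85, and most members of the pathway lists (blue) between -1 and 1.

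The 25 pathway lists held 406 genes, of which 396 were tested, and none passed by edgeR. DESeq2 called 4 of them, all higher: Xbp1, Ccl5, Il2ra and Cxcr6. Over all genes tested, 6585 had positive and 6679 negative common fold changes. The lists are described by their counts and medians, beside that even split.

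Activation and regulatory genes had mostly positive values. All 14 genes of the regulatory T cell list were positive (median 0.30, 6 at an unadjusted p under 0.05), and 11 of 17 activation and costimulation genes were (median 0.08). Il2ra, the alpha chain of the interleukin-2 receptor and a member of both lists, had 144, 158, 238, 328 and 258 CPM in CD4 C269 and 91.2, 102, 107, 106 and 179.7 CPM in CD4 CTRL. It had 51.3, 66.3, 30.6, 68.7 and 42.9 CPM in CD8 C269 and 28.9, 31.4, 35.6, 52.3 and 35.4 CPM in CD8 CTRL. Library 15 overlapped with the lower CD4 C269 libraries, and the log2 fold change was 0.72 (SE 0.17, edgeR adjusted p = 0.162). Tnfrsf18, which encodes the costimulatory receptor GITR, had 0.59 (SE 0.18, edgeR adjusted p = 0.326) and Cd44, a receptor of antigen-experienced cells, had 0.48 (SE 0.14, edgeR adjusted p = 0.249).

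Effector lists leaned the same way. Cytotoxic effectors were positive in 12 of 16 (median 0.33, 5 at an unadjusted p under 0.05), Th1 genes in 9 of 12 (median 0.26), type 2 genes in 10 of 11 (median 0.79, 6 at an unadjusted p under 0.05) and Th17 genes in 8 of 9 (median 0.45). Ccl5, a chemokine of effector T cells, had 161, 147, 175, 332 and 179.5 CPM in CD4 C269 and 70.8, 150.03, 97.2, 128 and 174 CPM in CD4 CTRL. It had 2963, 2838, 1363, 2607 and 878 CPM in CD8 C269 and 997, 994, 1281, 1417 and 847 CPM in CD8 CTRL. In CD8+ cells libraries 26, 27 and 29 lay above every control, and libraries 28 and 30 within the control range (log2 fold change 0.79, SE 0.19, edgeR adjusted p = 0.167).

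Gzmb, the cytotoxic protease granzyme B, had 43.1, 49.1, 89.2, 199 and 78.98 CPM in CD4 C269 and 40.7, 43.3, 37.2, 66.02 and 32.3 CPM in CD4 CTRL. It had 497, 1155, 211, 525 and 239 CPM in CD8 C269 and 289, 186, 369, 473 and 193 CPM in CD8 CTRL. The treatments overlapped in both lineages (log2 fold change 0.90, SE 0.27, edgeR adjusted p = 0.312). Il1rl1, the interleukin-33 receptor, had 181, 132, 375, 293 and 306 CPM in CD4 C269 and 76.6, 78.5, 99.996, 65.8 and 174 CPM in CD4 CTRL, and at most 9.32 CPM in any CD8+ library (log2 fold change 1.06, SE 0.28, edgeR adjusted p = 0.194). Gata3, the regulator of type 2 programmes, had 0.55 (SE 0.16, edgeR adjusted p = 0.281).

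Among Th1 and Th17 genes, Il12rb1, a chain of the interleukin-12 receptor, had a log2 fold change of 1.13 (edgeR adjusted p = 0.456), Rora 0.45 (edgeR adjusted p = 0.388) and Ccr6 1.12 (edgeR adjusted p = 0.567). Of the tissue residency list 10 of 11 were positive (median 0.12). The chemokine receptor gene Cxcr6 had 97.8, 90.8, 108, 136 and 62.4 CPM in CD4 C269 and 34.6, 36.1, 33.96, 44.5 and 66.1 CPM in CD4 CTRL. It had 406, 465, 216, 247 and 87.3 CPM in CD8 C269 and 179.9, 144, 192, 312 and 144 CPM in CD8 CTRL, where library 30 was the lowest of the 10 (log2 fold change 0.85, SE 0.22, edgeR adjusted p = 0.189). Rgs1, a regulator of G protein signalling, had 0.49 (SE 0.14, edgeR adjusted p = 0.288).

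The naive and memory list went the other way, with 11 of 12 genes negative (median -0.35) and 1 at an unadjusted p under 0.05. That gene, Dapl1, had 60.3, 56.4, 2.45, 2.24 and 14.9 CPM in CD4 C269 and 130.4, 138, 117, 3.001 and 41.6 CPM in CD4 CTRL. It had 45.6, 43.4, 181, 86.5 and 193 CPM in CD8 C269 and 296, 243, 211, 155 and 227 CPM in CD8 CTRL. Library 14 lay far below the other CD4 CTRL libraries (log2 fold change -1.35, SE 0.50, edgeR adjusted p = 0.456). Lef1, a transcription factor of naive T cells, had -0.80 (SE 0.41, edgeR adjusted p = 0.593).

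**Figure D5:**
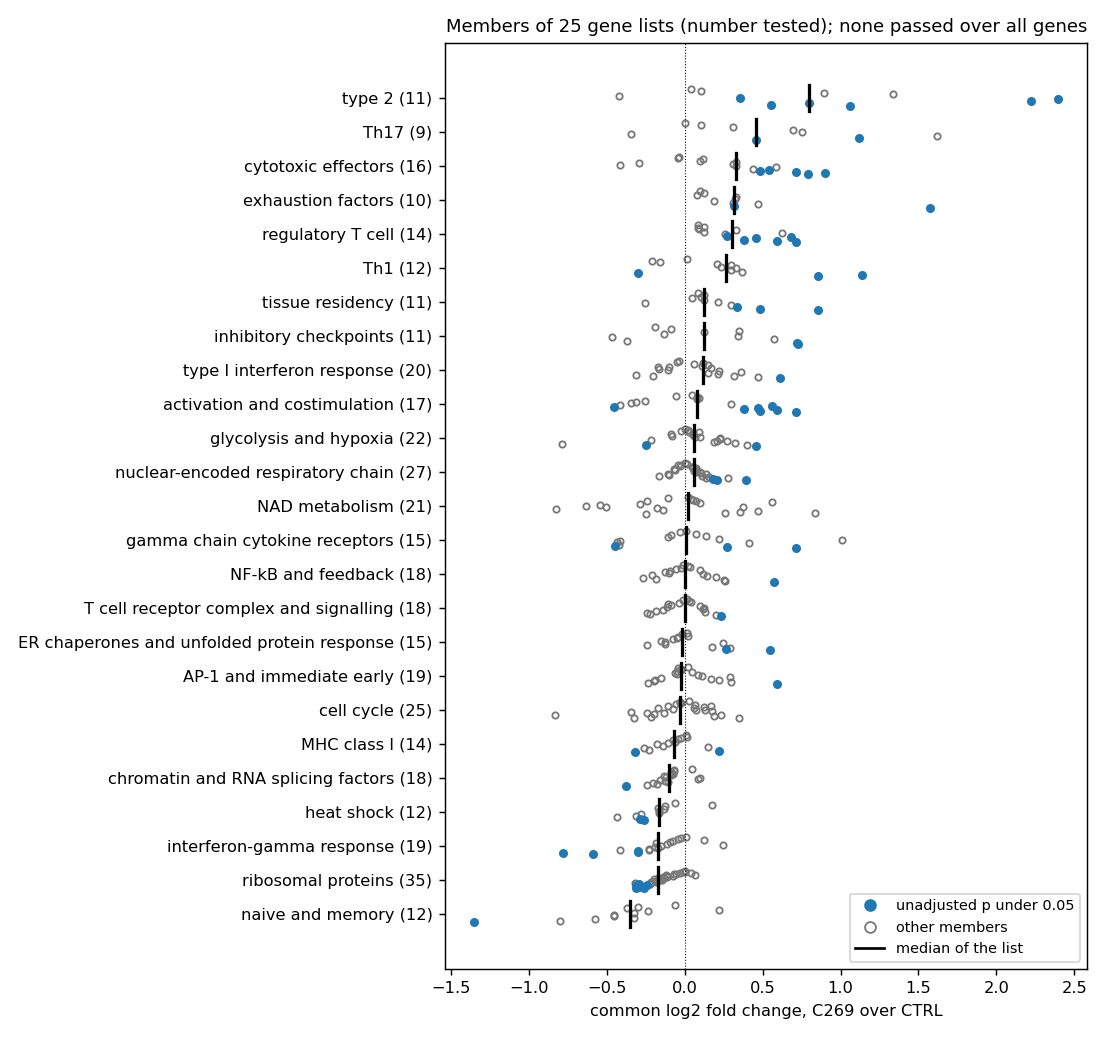
Common log2 fold change of C269 over CTRL for each tested member of 25 gene lists (points, filled where the unadjusted p is under 0.05) with the median of each list as a bar. The type 2 list has the highest median, 0.79, and the naive and memory list the lowest, -0.35, with no member passing over all genes.

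Genes of the PD-1 axis, the question the series title names, did not pass. Pdcd1, which encodes PD-1, had 44.4, 35.8, 76.7, 131 and 48.4 CPM in CD4 C269 and 14.8, 26.6, 29.7, 31.8 and 56.8 CPM in CD4 CTRL. It had 261, 361, 111, 139.8 and 63.02 CPM in CD8 C269 and 131, 73.3, 169, 251 and 72.2 CPM in CD8 CTRL. The ranges overlapped in both lineages, and the log2 fold change was 0.72 (SE 0.30, unadjusted p = 0.0223, edgeR adjusted p = 0.523). Cd274, which encodes PD-L1, had -0.09 (SE 0.15, edgeR adjusted p = 0.907), and Pdcd1lg2, which encodes PD-L2, had 0.73 (SE 0.30, edgeR adjusted p = 0.523).

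The inhibitory checkpoint list was positive in 6 of 11 genes (median 0.12). All 10 exhaustion factors were positive (median 0.32), 2 of them at an unadjusted p under 0.05. Tox2, a nuclear factor of exhausted and follicular helper T cells, had 40.7, 35.1, 12.2, 24.4 and 15.2 CPM in CD4 C269 and 15.02, 15.1, 17.6, 8.25 and 41.6 CPM in CD4 CTRL. It had 4.56, 23.9, 10.1, 14.3 and 7.08 CPM in CD8 C269 and 3.33, 0.283, 1.198, 0 and 0.358 CPM in CD8 CTRL, where the groups did not overlap. Its common log2 fold change was 1.57 (SE 0.52, edgeR adjusted p = 0.366), and Id2, an inhibitor of DNA binding, had 0.32 (SE 0.12, edgeR adjusted p = 0.5).

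In the interferon-gamma response list 16 of 19 genes were negative (median -0.17, 4 at an unadjusted p under 0.05), while 12 of 20 type I interferon genes were positive (median 0.11). The counts were 17 of 19 negative (median -0.21) and 7 of 20 positive (median -0.04) without libraries 27 and 29. Irf1, a transcription factor that interferon-gamma switches on, had 729, 716, 437, 398 and 644 CPM in CD4 C269 and 914, 920.3, 942, 683 and 692 CPM in CD4 CTRL. It had 492, 198, 552, 638 and 884 CPM in CD8 C269 and 897, 896, 895, 667 and 979 CPM in CD8 CTRL. In CD8+ cells the C269 libraries 26 to 29 lay below every control, and libraries 18, 19 and 20 did so in CD4+ cells (log2 fold change -0.59, SE 0.18, edgeR adjusted p = 0.331). The chemokine gene Cxcl9 had -0.78 (SE 0.28, edgeR adjusted p = 0.438), and Ifng itself had 0.33 (SE 0.25, edgeR adjusted p = 0.751). Cxcl9 had 227 CPM in library 14, against 39.7 to 94.5 CPM in the other CD4 CTRL libraries and 69.1 to 78.6 CPM in CD4 C269. In CD8+ cells it had 4.94 to 31.7 CPM in C269 and 29.1 to 85.03 CPM in CTRL. Of the type I genes, Usp18 had 0.61 (edgeR adjusted p = 0.526) and Mx1 0.47 (edgeR adjusted p = 0.645).

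Nampt, the gene of the antibody's target, had 110.3, 132, 99.2, 120.4 and 127 CPM in CD4 C269 and 101, 119, 117, 175 and 122 CPM in CD4 CTRL. It had 103, 154, 85.96, 89.4 and 89.5 CPM in CD8 C269 and 90.6, 70.7, 94.3, 95.4 and 99.4 CPM in CD8 CTRL. The ranges overlapped and the log2 fold change was 0.04 (SE 0.12, edgeR adjusted p = 0.962), with a negative sign when library 22 or library 27 was left out. The antibody acts on the protein outside cells, so that this level is no check of its action. The NAD metabolism list was split, 11 positive and 10 negative (median 0.02), with Parp1 at -0.25 (edgeR adjusted p = 0.608) and the NAD kinase gene Nadk at 0.26 (edgeR adjusted p = 0.623).

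The lists of ribosomal proteins, heat shock genes and chromatin and splicing factors had small fold changes, mostly negative. Of 35 ribosomal protein genes 32 were negative (median -0.17, 9 at an unadjusted p under 0.05), with Rpl23 at -0.31 (SE 0.13, edgeR adjusted p = 0.523) and Rps9 at -0.26 (SE 0.11, edgeR adjusted p = 0.523). Heat shock genes were negative in 11 of 12 (median -0.17) and chromatin and RNA splicing factors in 15 of 18 (median -0.10). The chromatin and splicing list was even without libraries 27 and 29, with 9 of 18 negative (median 0.01). Hsp90ab1 had -0.26 (edgeR adjusted p = 0.53) and the nuclear RNA Malat1 had -0.38 (edgeR adjusted p = 0.523). Beside these lists, the share of counts on ribosomal RNA was higher under C269 by 1.17 percentage points and that on mitochondrial genes dropped by 0.39 points, neither past the exact permutation test (adjusted p = 0.113 and 0.114). Their part in these values was not tested.

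The other lists had medians between -0.07 and 0.06. Genes of the T cell receptor complex and its signalling were 9 positive and 9 negative (median 0.0018), with Cd3e at 0.13 (edgeR adjusted p = 0.788), and gamma chain cytokine receptors and their signalling were 8 positive and 7 negative (median 0.01). Cell cycle genes were positive in 11 of 25 (median -0.03), AP-1 and immediate early genes in 9 of 19 (median -0.02), NF-kB and feedback genes in 9 of 18 (median 0.0024) and MHC class I genes in 4 of 14 (median -0.07). ER chaperones and unfolded protein response genes were positive in 7 of 15 (median -0.02), glycolysis and hypoxia genes in 16 of 22 (median 0.06) and nuclear-encoded respiratory chain genes in 18 of 27 (median 0.06). Glycolysis and hypoxia genes were positive in 11 of 22 without libraries 27 and 29 (median 0.0038). Egr3, an early gene of T cell receptor signalling, had 0.59 (SE 0.18, edgeR adjusted p = 0.308) and Hif1a, the hypoxia-inducible factor, had 0.46 (SE 0.13, edgeR adjusted p = 0.293).

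A common effect assumes that both lineages moved alike, and the interaction of lineage and treatment tests that. No gene passed (0 of 13264), and 561 genes (4.23%) had an unadjusted p under 0.05; DESeq2 also called none. A p that misses the threshold does not show that the lineages responded alike. Among the called genes Cd24a had the smallest interaction p, with a log2 fold change larger in CD8+ than in CD4+ cells by 1.44 (edgeR adjusted p = 0.986, unadjusted 0.00126).

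The smallest interaction p belonged to Gm43328, a predicted gene, with 3.99, 3.44, 3.11, 8.98 and 5.83 CPM in CD4 C269 and 0.509, 1.58, 2.34, 2.75 and 5.804 CPM in CD4 CTRL. It had 0, 0, 0.306, 0 and 0 CPM in CD8 C269 and 4.61, 1.98, 1.198, 3.85 and 2.504 CPM in CD8 CTRL, so that CD8 C269 was almost without counts. Fam149a and Nr5a2, which encodes a nuclear receptor, had the same shape, with at most 1 count over the CD8 C269 group in each. Slc38a10, an amino acid transporter gene, had 117, 119, 109.7, 109.7 and 129 CPM in CD4 C269 and 92.4, 91.8, 91.1, 129.8 and 107 CPM in CD4 CTRL. It had 61.5, 41.9, 56.9, 40.5 and 72.3 CPM in CD8 C269 and 86.5, 79.5, 96.1, 111 and 89.1 CPM in CD8 CTRL, all 5 C269 libraries below all 5 CTRL libraries in that lineage. The edgeR adjusted p for the interaction was 0.593 for Gm43328 and Fam149a and 0.986 for Slc38a10 and Nr5a2.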

How the data were processed

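Per the labels' protocols, RNA was extracted with the Lexogen SPLIT kit and libraries were read on a NextSeq 500. Reads were counted with featureCounts and compared with DESeq2, per the submitters' processing notes; the aligner is not given in the sources used here, and mm9 is named as build. Of 55401 deposited gene identifiers, 54928 (99.6%) share their start with GENCODE M21, so coordinates are GRCm38. The authors deposited raw counts per gene. Columns carry numbers; each deposited condition column equalled the sum of exactly 1 of 252 sets of 5 columns, which gave the groups. The 7 features of ribosomal RNA entered neither library sizes nor tests.

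The 20 libraries were fitted in edgeR 4.0.16 (R 4.3.3) with filterByExpr over the 4 groups, TMM, lineage and treatment as terms, and glmQLFTest with Benjamini-Hochberg adjustment over all genes tested (threshold 0.05). SE is the fold change divided by the root of F. The code was tested on simulated data. The members and lists were chosen with earlier results of these data known. Named genes were the called genes with at least 5 CPM, or the 5 smallest p per direction, the 2 smallest p of each list, Nampt, Pdcd1, Cd274, Ifng, Cd4, Cd8a and Cd3e, and the 4 smallest interaction p; 1 called gene is not reported here. Replicates within the 4 T cell groups differed by 6.06 to 37.7 in chi-square per gene. Counting error gives about 1, so none of these is a repeat. The 4T1 libraries were not compared in this way.

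Alternatives were other normalizations and filters, DESeq2 1.42.0, limma-voom (limma 3.58.1), robust dispersion, thinning, single lineages and leaving out libraries.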

Additional observations from a re-analysis of the deposited data

Results flagged for a closer look

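In 84 checks of groups of 5 libraries, 8 values lay apart from their group, where chance gives about 1 in 20 checks. The checks used log2(CPM + 1) for genes and the untransformed values for the library measures, and all 8 values were of genes. Library 19 had 82.5 CPM of Fam25c in CD4 C269, and library 15 had 5.05 CPM of Fam25c and 44.7 CPM of Ptn in CD4 CTRL, each the highest of its group. Library 24 had the lowest Gadd45gip1 level of CD8 CTRL (19.6 CPM), and library 22 the lowest Nampt level of CD8 CTRL (70.7 CPM). Cd4 was lowest in library 20 of CD4 C269 (116 CPM) and in library 14 of CD4 CTRL (71.3 CPM), and it was highest in library 27 of CD8 C269 (27.9 CPM).

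The sorted 4T1 libraries, which stayed outside the fit, also held the 4 called genes described. The mean of the 5 4T1 C269 libraries lay above every 4T1 CTRL library for each: Fam25c averaged 39.5 ± 63.1 CPM in 4T1 C269, against 2.59 ± 3.56 CPM in 4T1 CTRL. Prlr averaged 197 ± 274 CPM in 4T1 C269, against 22.4 ± 16.3 CPM in 4T1 CTRL. Ptn averaged 176 ± 298 CPM in 4T1 C269, against 14.97 ± 6.32 CPM in 4T1 CTRL. Cd24a averaged 287 ± 152 CPM in 4T1 C269, against 175 ± 95.7 CPM in 4T1 CTRL (SD, n = 5 each). Libraries 1 and 3 of 4T1 CTRL had close counts of some genes that varied widely in the group. These were 11116 and 11110 for Col1a1, and 53812 and 53932 for Hbb-bs. Whether both come from 1 sample was not tested, so the 4T1 CTRL SD may not rest on 5 independent libraries. Library 8 of 4T1 C269 held 150.4 CPM of Fam25c, 682 CPM of Prlr and 705 CPM of Ptn. Without it the 4T1 C269 means were 11.8 ± 13.7 CPM for Fam25c, 75.3 ± 42 CPM for Prlr, 43.4 ± 37 CPM for Ptn and 288 ± 175 CPM for Cd24a (SD, n = 4), each still above the highest 4T1 CTRL library. Libraries 9 and 10 of 4T1 C269 had the highest Krt19 levels of the 4T1 fraction (2076 and 1669 CPM). They held no count of Fam25c, 15.7 and 10.8 CPM of Ptn, and 42 and 43.3 CPM of Prlr. Of Cd24a they held 617 of 4454218 and 694 of 5176494 counts. Scaled to these totals, both levels lay below the 4T1 CTRL mean of 175 CPM. The lowest 4T1 C269 library lay inside the 4T1 CTRL range or below it for all 4 genes, and no test was run on the 4T1 libraries.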

How the results depend on the processing

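The count of 5 genes for the common effect, all higher in C269, was within 1.5 times under DESeq2's size factors in edgeR (5), total counts without TMM (7), a filter of 1 CPM in 10 libraries (5), ribosomal RNA kept (5), the average of the lineage effects (7) and, added after seeing the data, a filter by the model matrix (5). It was 211 without a filter on low counts (173 higher, 38 lower, 18 of them members of pathway lists, and 8 genes for the interaction), 60 by DESeq2 (53 higher, 7 lower, 4 members of pathway lists) and 9 after thinning every library to the lowest total (9 higher). It was 0 with limma-voom and 0 with robust dispersion, where none of the 5 passed. In CD4 libraries only it was 0, and in CD8 libraries only it was 1 (Cd24a). In that CD8 fit 2 others of the 5 were tested and missed the threshold, and the rest fell to the filter on low counts. Without libraries 27 and 29 it was 3, all among the 5. The cause of these differences was not tested.

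Leaving out each library in turn gave 0 to 11 genes (0 to 10 higher, 0 to 3 lower), with 0 to 5 of the 5 among them and 0 to 1 members of pathway lists. The difference in genes detected stayed between -1410 and -962.8 and no longer passed without library 21, 23, 24 or 25 (highest adjusted p = 0.0568, exact permutation test). Those of total counts, ribosomal RNA share and mitochondrial share stayed between -503000 and -325500, 0.897 and 1.58, and -0.507 and -0.223. Signs turned only for genes that had not passed. Nampt was at -0.11 and Cd4 at -0.00706 in CD4 libraries only, and Cd8a at -0.00231 in CD8 libraries only. Nampt was at -0.0147 without library 22 and -0.0487 without library 27, and Cd4 at -0.0552 without library 27, in fits where they lay at most at 0.0941 and 0.294. Without libraries 27 and 29, Nampt was at -0.0518, Cd4 at -0.0499 and Krt14 at -0.21.

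No paired analysis was possible because the sample titles tell replicates apart by letters and the table columns carry only running numbers.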

Other observations

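DESeq2 called 55 genes for the common effect that edgeR did not. The 5 of these with the smallest p that are not described above, a choice made after their values were seen, were all higher in C269. Pgr, which encodes the progesterone receptor, had a log2 fold change of 3.86 (SE 0.83, DESeq2 adjusted p = 0.00415). Dsg2, which encodes a cadherin of desmosomes, had 2.27 (SE 0.53, DESeq2 adjusted p = 0.0118), and Ubl3, which encodes a ubiquitin-like protein, had 0.45 (SE 0.11, DESeq2 adjusted p = 0.0186). Tfap2b, which encodes a transcription factor, had 2.88 (SE 0.70, DESeq2 adjusted p = 0.0203), and Fcgbp, which encodes a protein of mucus that binds IgG, had 2.54 (SE 0.63, DESeq2 adjusted p = 0.0228). None of these passed by edgeR.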
